A study of Mus musculus with 9 samples.

Results

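The presynaptic vesicle release machinery was followed in ribosome-bound RNA of the mouse dorsal striatum. Its members are a list of 53 genes of synaptic vesicles, vesicle fusion, vesicle priming and the active zone, taken by symbol and matched to the 47729 gene identifiers of the deposited files. Genes were listed by role and not by a cutoff on their values, but earlier results of these data were known when the list was made. All 53 were found, all 53 passed the filter for testing (at least 1 CPM, the count of reads of a gene scaled by library size, in at least 3 libraries, which 13695 genes passed), and the lowest member still had 110 reads in its poorest library.

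Synaptic vesicles fuse with the membrane of a nerve terminal when SNARE proteins on the vesicle and on the membrane zip together. Synaptotagmins sense the calcium that triggers the fusion, complexins clamp and promote it, Munc13 and CAPS proteins prime the vesicle beforehand, and Rab3 and Rab27 GTPases with RIM and other scaffolds bring the vesicle to the active zone. D1 medium spiny neurons are GABA-releasing output neurons of the striatum whose axons end in the basal ganglia output nuclei, so the RNA measured in the striatum is that of their cell bodies and dendrites, while the proteins it encodes act mostly at distant terminals.

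Tagged ribosomes were precipitated from C57BL/6 mice at postnatal day 28, and the bound RNA was sequenced in 9 libraries. The 3 control libraries came from D1-Cre-RT mice, in which Cre recombinase expressed from the D1 dopamine receptor gene switches on a hemagglutinin tag (RiboTag, RT) on a ribosomal protein. The other 6 came from D1-Cre-flTrkB-RT mice, which carry the same Cre and tag and also floxed TrkB, the receptor of the growth factor BDNF. Of these, 3 libraries were labelled stereotypy (repetitive behavior) and 3 no stereotypy. Cre and tag are thus present in all 3 groups, the behavior is a label within 1 genotype, and the labels call the libraries of a group biological replicates. Whether a library pooled animals is not given in the sources used here, nor are sex, batch and the Cre line.

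Libraries held 27103152 to 40578512 reads, so that a gene with no read could still stand at 0.0739 to 0.111 CPM (3 reads, counting error only). Ntrk2, the TrkB gene, ranged from 319 to 487 CPM over the controls, from 34.3 to 43.9 CPM over the stereotypy group and from 14.1 to 23.4 CPM over the no-stereotypy group, lower in all 6 TrkB-deleted libraries than in any control. Markers of D1 medium spiny neurons summed to 1902 to 2576, 2349 to 2446 and 1580 to 1954 CPM in the controls, the stereotypy group and the no-stereotypy group. The defining marker Drd1 stood at 515 to 955 CPM. RNA of other cells was also present: markers of D2 medium spiny neurons summed to 443 to 1433, 259 to 424 and 597 to 1050 CPM, and those of cortical excitatory neurons to 2872 to 4145, 2811 to 3745 and 3946 to 4812 CPM. Most of the cortical sum was Nrgn, which medium spiny neurons also express (2482 to 3572, 2557 to 3349 and 3240 to 3777 CPM), and without it the sums were 390.1 to 966, 254 to 396 and 699.7 to 1572 CPM. No marker list was at 0, and RNA from before the precipitation was not analysed here, so a change in level cannot be told apart from a change in the share of RNA from another cell type, nor fewer cells from less RNA per cell.

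Levels per length showed which isoforms dominated in the controls. On the scale of CPM per kilobase of exon, complexin 2 (Cplx2) was highest at 833 ± 13.5, followed by the membrane SNARE Snap25 at 339 ± 30.7, the calcium-independent synaptotagmin family member Syt11 at 318 ± 33.3, the vesicle membrane protein synaptophysin (Syp) at 317.5 ± 17.3 and the vesicle SNARE Vamp2 at 316.5 ± 11.2 (SD, n = 3). The last 4 differed from each other by less than the spread between libraries. Rab3a, the main vesicle Rab, stood at 269 ± 12.4 and complexin 1 (Cplx1) at 266 ± 8.03. The other end of the range held Syn3 at 0.474 ± 0.0528, Unc13b at 0.724 ± 0.272, Stxbp3 at 1.09 ± 0.451 and Stxbp5l at 1.10 ± 0.238 (CPM per kilobase, SD, n = 3). In several families one paralog carried most of the RNA. Vamp2 made up 98.9% ± 0.105 of the Vamp1 and Vamp2 level per kilobase, Unc13a 77.0% ± 4.39 of the Unc13 level and Cplx2 75.3% ± 0.765 of the complexin level in the controls (SD, n = 3). No RIM gene dominated in this way, and Rims4, Rims1, Rims3 and Rims2 held 38.5% ± 4.09, 26.0% ± 5.36, 23.3% ± 3.84 and 12.3% ± 3.67 of the RIM level (SD, n = 3).

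**Figure D1:**
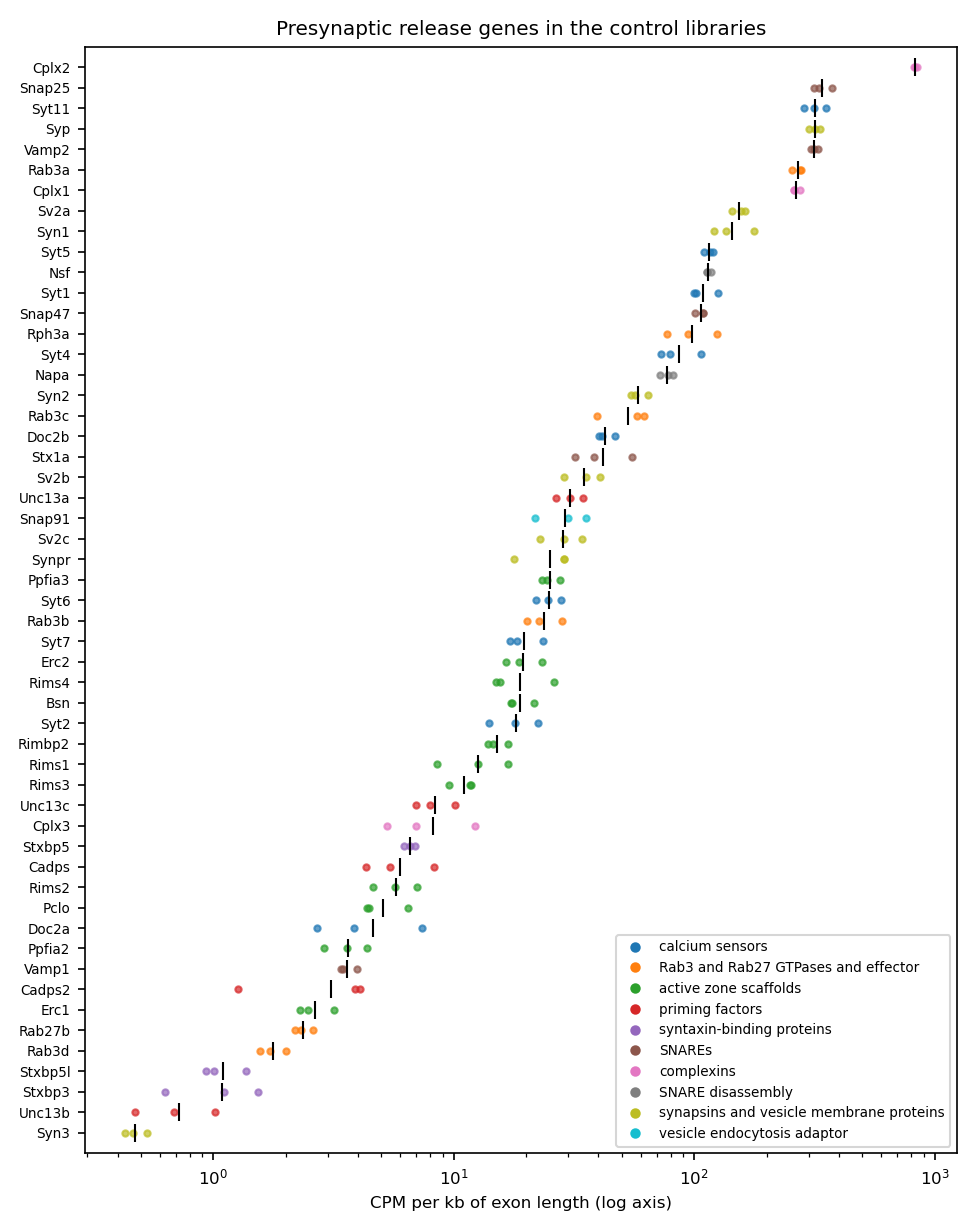
Level of each of the 53 genes in the 3 control libraries in CPM per kilobase of exon length on a log axis, with a point per library colored by role and a black tick at the mean. Cplx2 stands alone at 833, Snap25, Syt11, Syp and Vamp2 lie together between 316.5 and 339, and Unc13b and Syn3 lie below 1.

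The most abundant member of each role by CPM showed how even the libraries were. Syt11 stood at 1834, 1488 and 1642 CPM in the controls, 1540.4, 1512 and 1554 CPM with stereotypy and 1555, 1647 and 1706 CPM without. Snap25 stood at 2536, 2136 and 2234 CPM, then 2194, 1964 and 1939 CPM, then 2092, 2041 and 2455 CPM in the same order of groups. Cplx2 stood at 4081, 4178 and 4051 CPM in the controls, 3431, 3064 and 3335 CPM with stereotypy and 3822, 3631 and 3349 CPM without. Every TrkB-deleted library lay below every control for Cplx2, yet its log2 changes of -0.33 and -0.19 did not pass the threshold (limma adjusted p = 0.075 and 0.276). Rab3c, the most abundant Rab of the list by CPM, stood at 697, 475 and 745 CPM, 512, 692 and 772 CPM, and 531, 561 and 651 CPM, and its groups overlapped. The active zone scaffold bassoon (Bsn) stood at 279, 277 and 343 CPM, 232, 269 and 252 CPM, and 247, 308 and 338 CPM, with the stereotypy libraries just below the controls and the no-stereotypy libraries overlapping both. Levels of the main priming factor Unc13a overlapped between all groups, at 386, 336 and 435 CPM, 342, 404 and 383 CPM, and 318, 361 and 365 CPM. Tomosyn (Stxbp5), which binds syntaxin and holds fusion back, stood at 109, 102 and 114 CPM, 109, 124 and 132 CPM, and 96.2, 98.6 and 114 CPM. The clathrin adaptor AP180 (Snap91), which acts after fusion in vesicle retrieval, stood at 274, 199 and 325 CPM, 278, 319 and 293 CPM, and 316, 319.8 and 423 CPM. None of Syt11, Snap25, Rab3c, Bsn, Unc13a, Stxbp5 and Snap91 passed the threshold in any comparison.

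Summed over all 53 genes, the level was 22229, 20727 and 22761 CPM in the controls, 20950, 20907 and 20808 CPM with stereotypy and 23651, 23270 and 25383 CPM without. The no-stereotypy libraries all lay above the other 6, and the stereotypy libraries lay within the range of the controls. The difference was spread unevenly over the roles. Synapsins and vesicle membrane proteins summed to 4070 ± 308, 4383 ± 130 and 5630 ± 531 CPM, and SNAREs to 3938 ± 157, 3404 ± 192 and 3983 ± 353 CPM, in the controls, the stereotypy group and the no-stereotypy group (SD, n = 3). These sums are descriptions and were not tested.

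**Figure D2:**
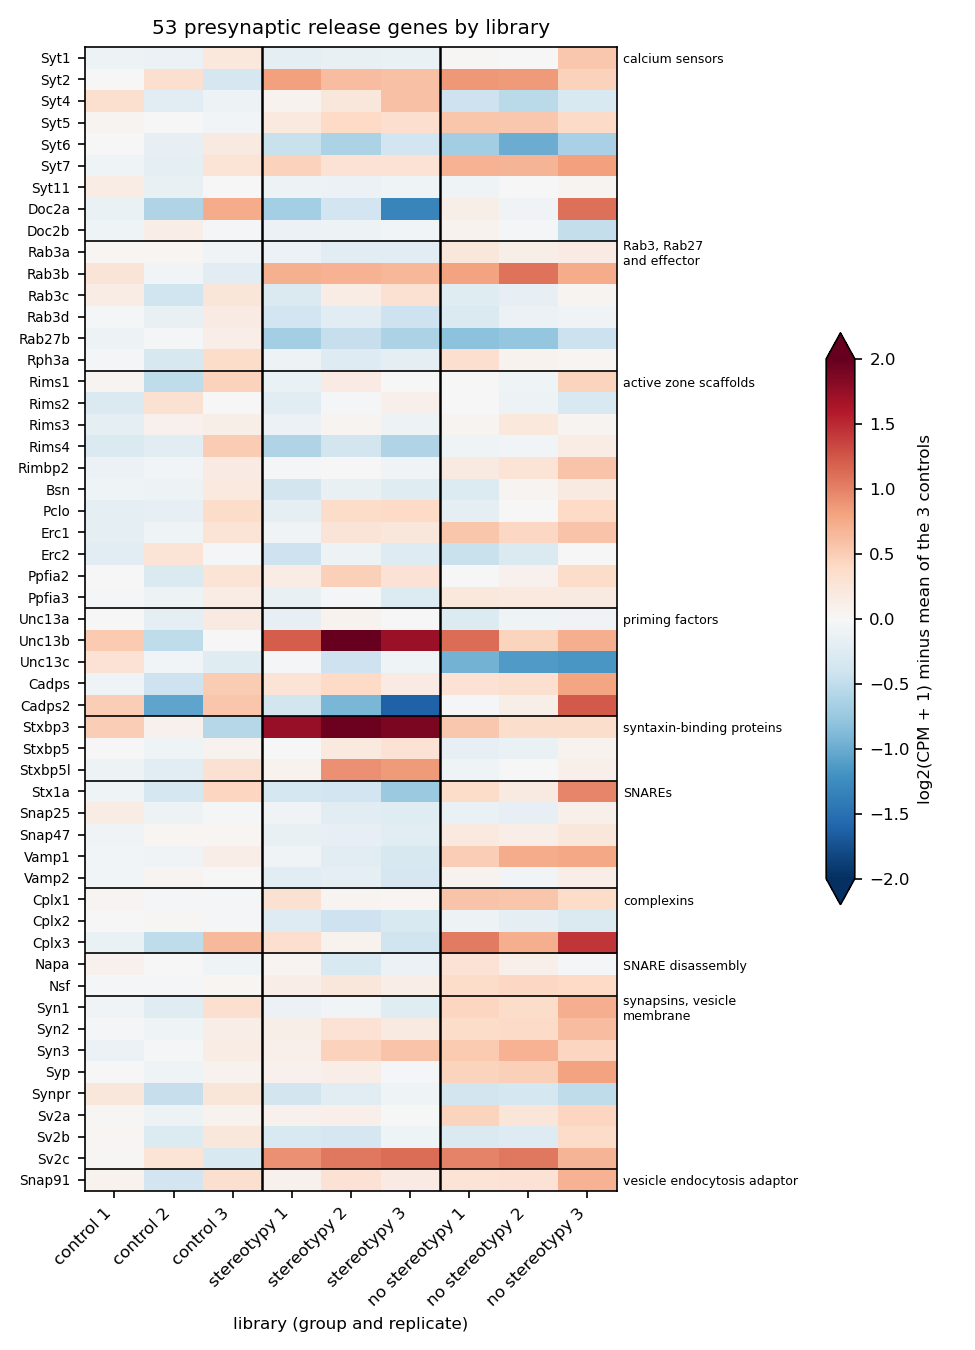
Each of the 53 genes (rows, grouped by role) in each of the 9 libraries (columns), colored by log2(CPM + 1) minus the mean of the 3 controls. Unc13b and Stxbp3 are darkest in the stereotypy libraries, Sv2c, Rab3b and Syt2 are raised in both TrkB-deleted groups, and Stx1a, Cplx3, Syn1 and Syp are highest in the third library without stereotypy.

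Promoter sequences are shown for 4 of the genes that changed in the comparisons below and whose promoters hold 1 of the 2 motifs searched. Erc1, Ppfia3 and Syn1 also met both conditions and are not shown. RefSeq promoters on GRCm38.p6, from 250 bases before to 50 bases after the start of the transcript, were at hand for 42 of the 53 genes (54 promoters). Their median GC content was 62.8%, beside 52.7% over all 32851 promoters of the table. The cyclic AMP response element, TGACGTCA, lay in 3 of the 54 promoters (5.56%; Napa, Stxbp3 and Syn1), beside 1.79% of all promoters. A site of the Egr family of immediate early factors, GCGNGGGCG, lay in 10 (18.5%; Cadps2, Cplx1, Erc1, Nsf, Ppfia3, Stxbp5, Stxbp5l, Syn2, Synpr and Unc13a), beside 5.55% of all. Both strands were searched, the 2 motifs do not overlap each other here, and the GC content of the promoters, which differs, was not adjusted for. A match is a description of letters, not a binding site. In the sequences below the capitals mark the motif. The promoter of Stxbp3 lies at chr3:108840453-108840752 on the minus strand, with the first base of its cyclic AMP response element at position -108 (the first transcribed base is position 1). Those of Cplx1 (chr5:108549978-108550277, minus strand), Nsf (chr11:103954007-103954306, minus strand) and Syn2 (chr6:115134652-115134951, plus strand) hold an Egr site at positions 17, -52 and -41. A second Syn2 promoter (chr6:115238744-115239043) held no match. All 3 genes rose without stereotypy against the controls, but they were picked from genes that changed, so this is not a separate result. Of the 10 members with an Egr site, 4 rose in that comparison (these 3 and Erc1), beside 12 of all 53. The other 6 did not pass, with log2 values from -0.41 for Synpr to 0.43 for Cadps2. A link of site and change was not tested.
Stxbp3: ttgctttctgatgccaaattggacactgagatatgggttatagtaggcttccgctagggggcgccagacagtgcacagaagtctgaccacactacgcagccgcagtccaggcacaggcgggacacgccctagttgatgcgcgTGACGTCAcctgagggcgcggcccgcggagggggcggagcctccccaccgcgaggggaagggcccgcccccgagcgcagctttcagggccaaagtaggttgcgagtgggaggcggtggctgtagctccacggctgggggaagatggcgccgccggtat
Cplx1: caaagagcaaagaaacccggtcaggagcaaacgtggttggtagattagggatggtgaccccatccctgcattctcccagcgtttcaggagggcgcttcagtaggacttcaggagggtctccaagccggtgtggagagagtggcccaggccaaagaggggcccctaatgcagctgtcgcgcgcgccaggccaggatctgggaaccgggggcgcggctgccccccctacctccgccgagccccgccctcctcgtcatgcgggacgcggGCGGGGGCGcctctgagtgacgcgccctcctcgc
Nsf: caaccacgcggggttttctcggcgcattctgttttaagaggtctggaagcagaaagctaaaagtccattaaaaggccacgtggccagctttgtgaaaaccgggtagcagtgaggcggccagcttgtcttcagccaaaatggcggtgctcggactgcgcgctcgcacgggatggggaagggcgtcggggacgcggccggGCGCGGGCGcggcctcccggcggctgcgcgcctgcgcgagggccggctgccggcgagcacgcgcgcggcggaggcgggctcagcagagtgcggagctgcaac
Syn2: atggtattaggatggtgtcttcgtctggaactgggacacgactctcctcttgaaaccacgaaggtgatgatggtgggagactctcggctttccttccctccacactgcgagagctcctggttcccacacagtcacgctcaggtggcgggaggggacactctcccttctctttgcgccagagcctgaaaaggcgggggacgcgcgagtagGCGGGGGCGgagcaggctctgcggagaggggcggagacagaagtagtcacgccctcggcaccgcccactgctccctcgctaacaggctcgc

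The stereotypy group was first compared with the controls, to see which release genes differed in TrkB-deleted mice with the behavior. The vesicle protein Sv2c, the vesicle GTPase Rab3b, the calcium sensor Syt2, the priming factor Unc13b and the syntaxin-binding protein Stxbp3 rose, and the GTPase Rab27b and the synaptotagmin Syt6 fell. These were 7 of 53 genes (13.2%), beside 5.10% of all genes tested by the same rule (limma, adjusted p under 0.05). The 5 that rose stand beside 3.58% of all genes higher, and the 2 that fell beside 1.53% lower. The median log2 change was -0.04 over the 53 genes and 0.05 over all genes. Stxbp3 and Sv2c passed whichever library was left out, Rab3b did not without any one of the 3 stereotypy replicates, and Syt2, Syt6 and Rab27b did not in 7, 6 and 7 of the 9 such fits, so the count was 4, 2, 3 and 4 without stereotypy replicates 1, 2 and 3 and no-stereotypy replicate 1. In those 4 fits 2.08%, 0.913%, 1.81% and 2.91% of all genes passed. With median-of-ratios rescaling, the all-gene split moved from 490 higher and 209 lower to 382 and 339.

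Stxbp3 (ENSMUSG00000027882, chromosome 3, 108793176 to 108840526, GRCm38), also called Munc18c, binds syntaxins of the plasma membrane and is best known for vesicle traffic outside neurons. Its levels were 8.18, 5.91 and 3.37 CPM in the controls, 20.8, 24.3 and 23.0 CPM with stereotypy and 8.45, 7.34 and 7.37 CPM without. All 3 stereotypy libraries lay above the other 6, while the remaining groups overlapped. Its log2 change against the controls was 1.86 with stereotypy (SE 0.22, limma adjusted p = 0.00234) and 0.42 without (SE 0.22, limma adjusted p = 0.308).

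Unc13b (ENSMUSG00000028456, chromosome 4, 43058953 to 43264871), Munc13-2, primes vesicles in place of or beside Munc13-1. Its levels were 23.0, 10.8 and 15.6 CPM in the controls, 37.8, 74.6 and 54.3 CPM with stereotypy and 35.3, 21.9 and 26.6 CPM without. The stereotypy libraries differed among themselves the most but did not overlap with the controls. With stereotypy Unc13b changed by 1.70 on the log2 scale (SE 0.29, limma adjusted p = 0.0107), and without stereotypy replicate 2 by 1.47 (limma adjusted p = 0.0547). In the no-stereotypy group the value was 0.76 (limma adjusted p = 0.146).

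Sv2c (ENSMUSG00000051111, chromosome 13, 95954594 to 96132577) is the vesicle glycoprotein of the SV2 family that is enriched in the basal ganglia. The controls held 279, 331 and 221 CPM, the stereotypy group 516, 569 and 593 CPM and the no-stereotypy group 543, 571 and 437 CPM. Every TrkB-deleted library lay above every control. The log2 change was 1.03 with stereotypy (SE 0.15, limma adjusted p = 0.00546) and 0.91 without (SE 0.15, limma adjusted p = 0.00611).

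Rab3b (ENSMUSG00000003411, chromosome 4, 108879063 to 108943324), a vesicle Rab used in particular neuron types, stood at 99.6, 80.1 and 71.2 CPM in the controls, 137, 135 and 133 CPM with stereotypy and 145, 178 and 139.7 CPM without. Again the TrkB-deleted libraries did not overlap with the controls, and the changes were 0.69 (SE 0.13, limma adjusted p = 0.0159) and 0.88 (SE 0.13, limma adjusted p = 0.00359). Syt2 (chromosome 1, 134646677 to 134762593), a fast calcium sensor for fusion like Syt1, stood at 138, 172 and 108 CPM, 242, 209 and 206 CPM, and 249, 246 and 188 CPM. Its changes were 0.67 (SE 0.16, limma adjusted p = 0.041) and 0.72 (SE 0.16, limma adjusted p = 0.0253), and the lowest TrkB-deleted library lay above the highest control. Syt1, the more abundant fast sensor, did not pass the threshold and stood at 910.4 ± 119, 809.9 ± 17.6 and 1049 ± 238 CPM (SD, n = 3).

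The synaptotagmin Syt6 (ENSMUSG00000027849, chromosome 3, 103575231 to 103645569) stood at 143, 129 and 163 CPM in the controls, 105, 93.1 and 111 CPM with stereotypy and 89.0, 72.3 and 92.0 CPM without. Each of the 6 TrkB-deleted libraries lay below the lowest control. The log2 change was -0.48 with stereotypy (SE 0.12, limma adjusted p = 0.0458) and -0.77 without (SE 0.12, limma adjusted p = 0.00532). Rab27b, a GTPase of dense-core and other secretory vesicles, stood at 23.3, 24.6 and 27.7 CPM, 15.3, 18.1 and 15.8 CPM, and 13.9, 14.2 and 18.4 CPM. It too separated completely from the controls, at -0.59 (SE 0.14, limma adjusted p = 0.0346) and -0.68 (SE 0.14, limma adjusted p = 0.0151). Both comparisons use the same 3 controls, so equal directions in them are not independent.

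Markers of glia and vessels also differed in this comparison. The summed level of 12 astrocyte markers was 454 to 561, 645 to 673 and 452 to 567 CPM in the controls, the stereotypy group and the no-stereotypy group, and 6 of the 12 rose with stereotypy. Slc4a4 alone held 275 ± 22.7, 394 ± 31.8 and 253 ± 23.1 CPM of these sums (SD, n = 3), and all 12 had a positive change with stereotypy. Vascular markers summed to 22.0 to 46.3, 43.6 to 96.3 and 13.6 to 28.7 CPM, and oligodendrocyte markers to 601 to 1260, 1235 to 2198 and 791 to 1814 CPM. Tagln held 17.2 ± 9.84, 1.82 ± 0.531 and 1.54 ± 0.146 CPM of the vascular sums (SD, n = 3). Of 10 vascular markers tested, 9 had a positive change with stereotypy and 1, Tagln, a negative one, with a median log2 change of 1.04. With a covariate of these glial and vascular markers in the limma fit, 0 of the 53 genes passed for stereotypy against control and 2 of all 13695 genes did. An unadjusted p under 0.05 was found for 14 of the 53 and for 1389 of the 13695. The estimates stayed near or above their size for Stxbp3 (1.91, SE 0.43, limma adjusted p = 0.189) and Sv2c (1.48, SE 0.23, limma adjusted p = 0.0688), while that of Unc13b was 0.93 (limma adjusted p = 0.547).

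The no-stereotypy group differed from the controls in more of the genes. The change ran mostly upward and covered vesicle membrane proteins (Syp, Sv2a, Sv2c), the synapsin Syn2, the vesicle SNARE Vamp1, Cplx1, the SNARE-recycling ATPase Nsf, the calcium sensors Syt2, Syt5 and Syt7, Rab3b and the scaffold Erc1. Syt6, Rab27b and the priming factor Unc13c fell. In all, 15 of 53 passed (28.3%), beside 6.77% of all genes, with 12 higher (beside 3.76% of all genes) and 3 lower (beside 3.01%). The median log2 change was 0.17 over the 53 genes and 0.03 over all genes. With edgeR, the all-gene split was 411 higher and 493 lower in place of 515 and 412, and the split over the 53 genes was 11 and 3. Markers of D1 neurons had a median log2 change of -0.42 in this comparison (0 of 9 called by limma, 6 with an unadjusted p under 0.05), and Drd1 lay at 515 to 655 CPM, below the 684 to 866 CPM of the controls. Of the 9 markers, 7 had a negative change and 2 a positive one. Pdyn went the other way, at 253, 261 and 153 CPM in the controls and 282, 367 and 298 CPM without stereotypy. Cortical markers had a median of 0.49 with 2 of 11 higher (Cux2 and Emx1), and the part of D1 markers in the result was not tested.

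Syp (ENSMUSG00000031144, chromosome X, 7638471 to 7653256), synaptophysin, is among the most abundant proteins of the vesicle membrane. It stood at 1662, 1561 and 1741 CPM in the controls, 1763, 1807 and 1611 CPM with stereotypy and 2245, 2307 and 2895 CPM without. The no-stereotypy libraries lay above all others, and the other groups overlapped. The log2 change was 0.58 (SE 0.11, limma adjusted p = 0.0138). An antisense gene, Gm14703, overlaps 16.8% of its exon length and reached 64.2 CPM, and reads of the pair cannot be assigned without strand.

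Sv2a, the SV2 protein found at nearly all synapses, stood at 725, 668 and 755 CPM, 760.1, 769.6 and 715 CPM, and 970.2, 848 and 959.9 CPM. The change without stereotypy was 0.37 (limma adjusted p = 0.0315). Syn2 (chromosome 6, 115134902 to 115282006), which like other synapsins tethers vesicles in the reserve pool, stood at 398, 386 and 451 CPM, 444, 499 and 465 CPM, and 529, 535 and 631 CPM, a change of 0.46 (limma adjusted p = 0.0215). For both genes the no-stereotypy libraries lay above every other library.

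Vamp1 (ENSMUSG00000030337, chromosome 6, 125215551 to 125245964), the minor vesicle SNARE beside Vamp2, stood at 35.1, 34.7 and 40.1 CPM in the controls, 34.9, 31.0 and 29.2 CPM with stereotypy and 52.1, 62.0 and 63.5 CPM without. Only the no-stereotypy libraries stood apart, at a log2 change of 0.67 (SE 0.11, limma adjusted p = 0.0075). Vamp2 stood at 1206 ± 42.8, 1014 ± 54.7 and 1247 ± 77.6 CPM (SD, n = 3) and did not pass in any comparison. Cplx1 (ENSMUSG00000033615, chromosome 5, 108518554 to 108550024) stood at 602, 571 and 571 CPM, 718, 602 and 596 CPM, and 862, 855 and 749.6 CPM, with no overlap between the no-stereotypy group and the rest. It changed by 0.50 without stereotypy (SE 0.10, limma adjusted p = 0.0138), and the Egr site of its promoter is the one printed above.

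Nsf (ENSMUSG00000034187, chromosome 11, 103821782 to 103954056), the ATPase that takes spent SNARE complexes apart, was nearly constant within groups. Its levels were 940.4, 941 and 983 CPM in the controls, 1049, 1121 and 1045 CPM with stereotypy and 1237, 1276 and 1263 CPM without. The 3 groups did not overlap, and the change without stereotypy was 0.40 (SE 0.08, limma adjusted p = 0.0132), against 0.17 with stereotypy (limma adjusted p = 0.217). Its adaptor Napa, alpha-SNAP, did not pass the threshold, at 293 ± 17.5, 271 ± 33.6 and 321 ± 35.4 CPM (SD, n = 3).

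Among the calcium sensors, Syt5 (chromosome 7, 4539765 to 4547541), found on dense-core and synaptic vesicles, stood at 284, 277 and 263 CPM, 315, 361 and 346 CPM, and 403, 398 and 359.8 CPM. Its change without stereotypy was 0.49 (SE 0.08, limma adjusted p = 0.00813). Syt7 (chromosome 19, 10389090 to 10453180), the slow sensor of asynchronous release and facilitation, stood at 138, 128 and 176 CPM, 201, 179 and 178 CPM, and 237, 234 and 259.6 CPM, a change of 0.73 (SE 0.12, limma adjusted p = 0.00575). Both sensors lay above the controls in all 6 TrkB-deleted libraries, while with stereotypy the changes of 0.31 and 0.34 did not pass (limma adjusted p = 0.0606 and 0.108).

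Unc13c (ENSMUSG00000062151, chromosome 9, 73479422 to 73968966), Munc13-3, is the priming factor otherwise known from the cerebellum. It stood at 89.5, 69.8 and 61.4 CPM in the controls, 70.8, 54.1 and 68.3 CPM with stereotypy and 37.3, 32.8 and 31.8 CPM without. The no-stereotypy libraries lay below all others, and the other groups overlapped. Without stereotypy Unc13c fell by 1.08 on the log2 scale (SE 0.15, limma adjusted p = 0.00283). Erc1 (chromosome 6, 119570796 to 119848167), an ELKS scaffold of the active zone, stood at 37.3, 40.1 and 51.8 CPM, 40.5, 51.4 and 50.3 CPM, and 62.9, 57.3 and 63.7 CPM. Its change of 0.51 passed narrowly (limma adjusted p = 0.0484) and did not pass with median-of-ratios rescaling (limma adjusted p = 0.068) or with edgeR (edgeR adjusted p = 0.0775).

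Of these 15 calls, 7 held under every alternative tried (Rab3b, Sv2c, Syt5, Syt6, Syt7, Unc13c and Vamp1). Leaving out no-stereotypy replicate 1 or 2 lowered the count from 15 to 8 or 9, and either loss ended the calls of Cplx1, Nsf, Rab27b, Syn2, Syt2 and Erc1. The share of all genes fell too, from 6.77% to 2.32% or 3.28%. Syn2 and Syt2 were also lost without control replicate 1, Syt2 without control replicate 3, and Sv2a and Erc1 in 6 and 7 of the 9 fits that left out a library.

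**Figure D3:**
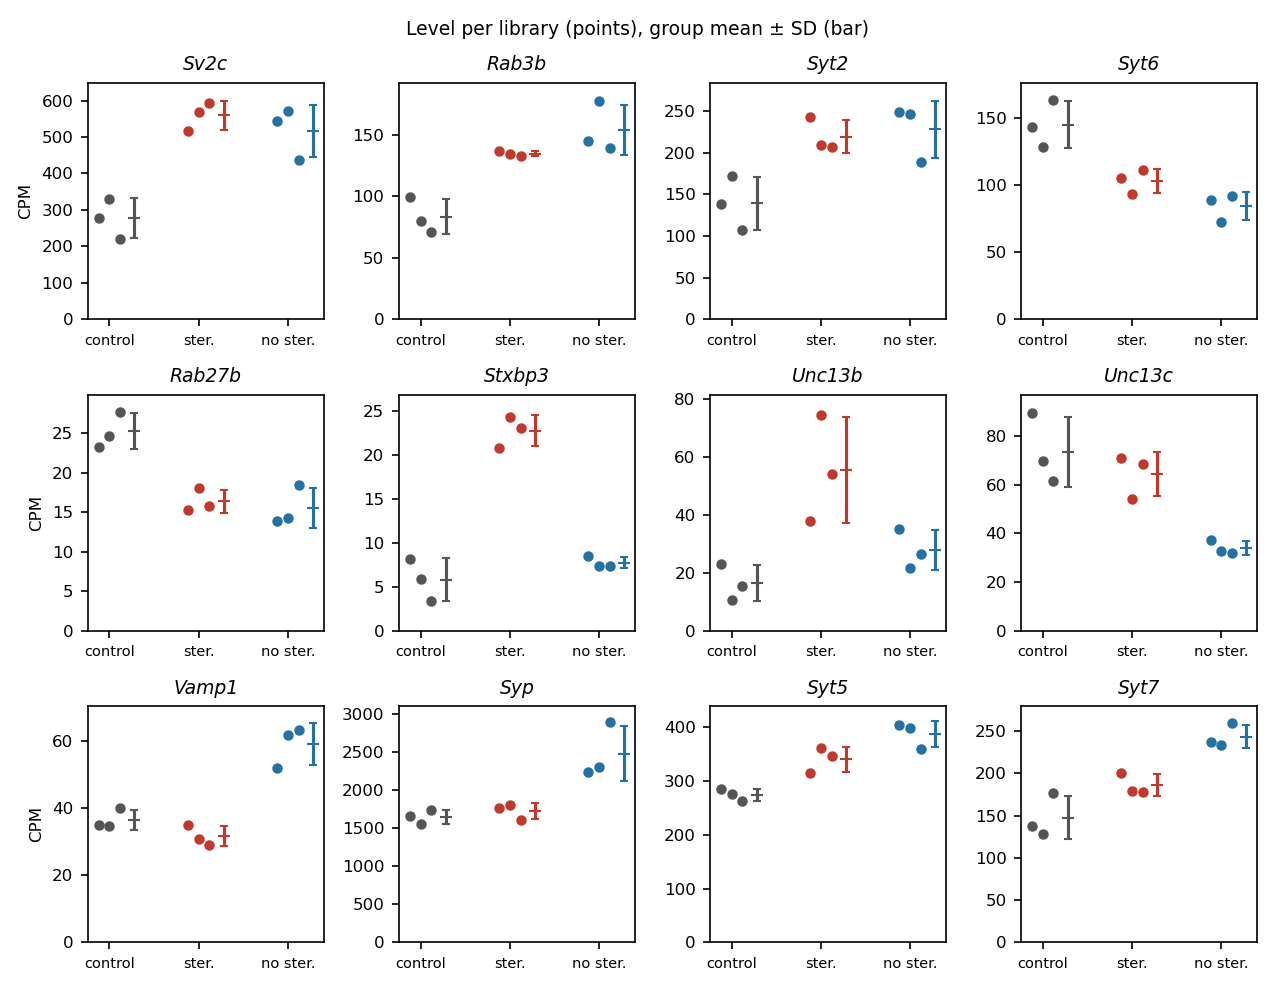
Level in CPM, from 0 upward, of 12 genes that passed the threshold against the controls, with a point per library and a bar for the mean and SD of the group of 3 (control gray, stereotypy red, no stereotypy blue). Sv2c, Rab3b and Syt2 are higher and Syt6 and Rab27b lower in both TrkB-deleted groups, the stereotypy libraries stand apart from the other 6 for Stxbp3, and the no-stereotypy libraries do so for Unc13c, Vamp1 and Syp.

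To describe the genotype on average, both TrkB-deleted groups together were set against the controls. Sv2c, Rab3b, Syt2, Syt5, Syt7, Nsf, Stxbp3 and Unc13b rose and Syt6, Rab27b and Unc13c fell, 11 of 53 (20.8%) beside 5.72% of all genes. The 8 that rose stand beside 3.67% of all genes higher and the 3 that fell beside 2.05% lower. With rescaling the all-gene split moved from 503 higher and 281 lower to 391 and 361. The mean change was 0.97 for Sv2c (SE 0.13, limma adjusted p = 0.00221), 0.79 for Rab3b (SE 0.11, limma adjusted p = 0.00315) and 1.23 for Unc13b (SE 0.25, limma adjusted p = 0.0175). Stxbp3 and Unc13c, whose TrkB-deleted groups differed from each other, had means of 1.14 and -0.63 (limma adjusted p = 0.0079 and 0.0185). Without control replicate 1 the count was 7 (Nsf, Syt2, Syt7 and Unc13c were lost), Unc13b was lost without control replicate 2 and Nsf in 8 of the 9 such fits, and with the glial and vascular covariate it was 3 (Sv2c, Rab3b and Syt6). Of all genes, 3.23% passed without control replicate 1 and 0.424% with that covariate.

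Libraries with and without stereotypy were then compared directly, which tests whether the 2 changes against the controls differ. Rab3a, Ppfia3, Cplx1, Cplx3, Snap47, Stx1a, Syn1, Syp and Vamp1 were lower with stereotypy than without, and Stxbp3, Syt4 and Unc13c were higher. That is 12 of 53 (22.6%), beside 10.2% of all genes, with 3 higher (beside 6.61%) and 9 lower (beside 3.60%). The median log2 difference was -0.19 over the 53 genes and 0.02 over all genes. All 5 SNAREs and all 3 complexins had a negative difference, of which 3 and 2 passed.

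For Stx1a (ENSMUSG00000007207, chromosome 5, 135023482 to 135051100), the syntaxin of the presynaptic membrane, the levels were 102, 84.8 and 147 CPM in the controls, 85.2, 82.6 and 64.1 CPM with stereotypy and 140.4, 123 and 214 CPM without. The TrkB-deleted groups did not overlap, and the controls overlapped with both. The difference was -1.0 on the log2 scale (SE 0.23, limma adjusted p = 0.0271). Snap47, a SNAP25-like SNARE, stood at 268, 289.6 and 289.8 CPM, 253, 252 and 243 CPM, and 325, 309 and 331 CPM, a difference of -0.36 (limma adjusted p = 0.0232), with 3 groups that did not overlap. Vamp1, with the levels given above, differed by -0.88 (SE 0.11, limma adjusted p = 0.0154).

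Complexin 3 (Cplx3), known from retina and from deep cortical layers, stood at 20.6, 15.6 and 36.3 CPM, 29.1, 23.9 and 17.0 CPM, and 47.8, 38.3 and 63.0 CPM. It differed by -1.06 (SE 0.29, limma adjusted p = 0.0431). Cplx1 differed by -0.37 (limma adjusted p = 0.0402). Syn1 (ENSMUSG00000037217, chromosome X, 20860511 to 20921004), the main synapsin, stood at 446, 397 and 585 CPM, 432, 450.3 and 398 CPM, and 635, 606 and 775 CPM, a difference of -0.65 (SE 0.14, limma adjusted p = 0.0256). Syp differed by -0.52 (SE 0.11, limma adjusted p = 0.0256). For each of these 4 genes every stereotypy library lay below every no-stereotypy library.

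Rab3a stood at 614, 617 and 568 CPM, 554, 512 and 516 CPM, and 698, 649.5 and 673 CPM, and the liprin Ppfia3, which organizes active zones, at 193, 184 and 218 CPM, 177, 193 and 164 CPM, and 228, 227 and 225 CPM. Both differences were -0.35 (limma adjusted p = 0.0264 and 0.0377). Stxbp3 was higher with stereotypy by 1.44 (SE 0.22, limma adjusted p = 0.0154) and Unc13c by 0.90 (SE 0.15, limma adjusted p = 0.0175). Syt4, a synaptotagmin of dense-core vesicles that lacks normal calcium binding, stood at 415, 283 and 310.0 CPM, 347, 386 and 495 CPM, and 248, 228 and 269 CPM. It was higher by 0.70 (SE 0.16, limma adjusted p = 0.0267), and the controls overlapped with the stereotypy group and not with the no-stereotypy group.

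None of these 12 calls was independent of single libraries. Without stereotypy replicate 2 or 3, or without no-stereotypy replicate 1 or 2, limma called 0 of the 53 genes, and 21 to 25 of them had an unadjusted p under 0.05. Among all genes, 2848 to 3248 of the 13586 to 13667 tested had such a p. Limma then called 1, 0, 0 and 0 of all genes. With all 9 libraries, edgeR called 15 of the 53 and DESeq2 21, and limma with the glial and vascular covariate called 5, all lower. Of all genes, these fits called 9.75%, 17.1% and 1.38%.

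**Figure D4:**
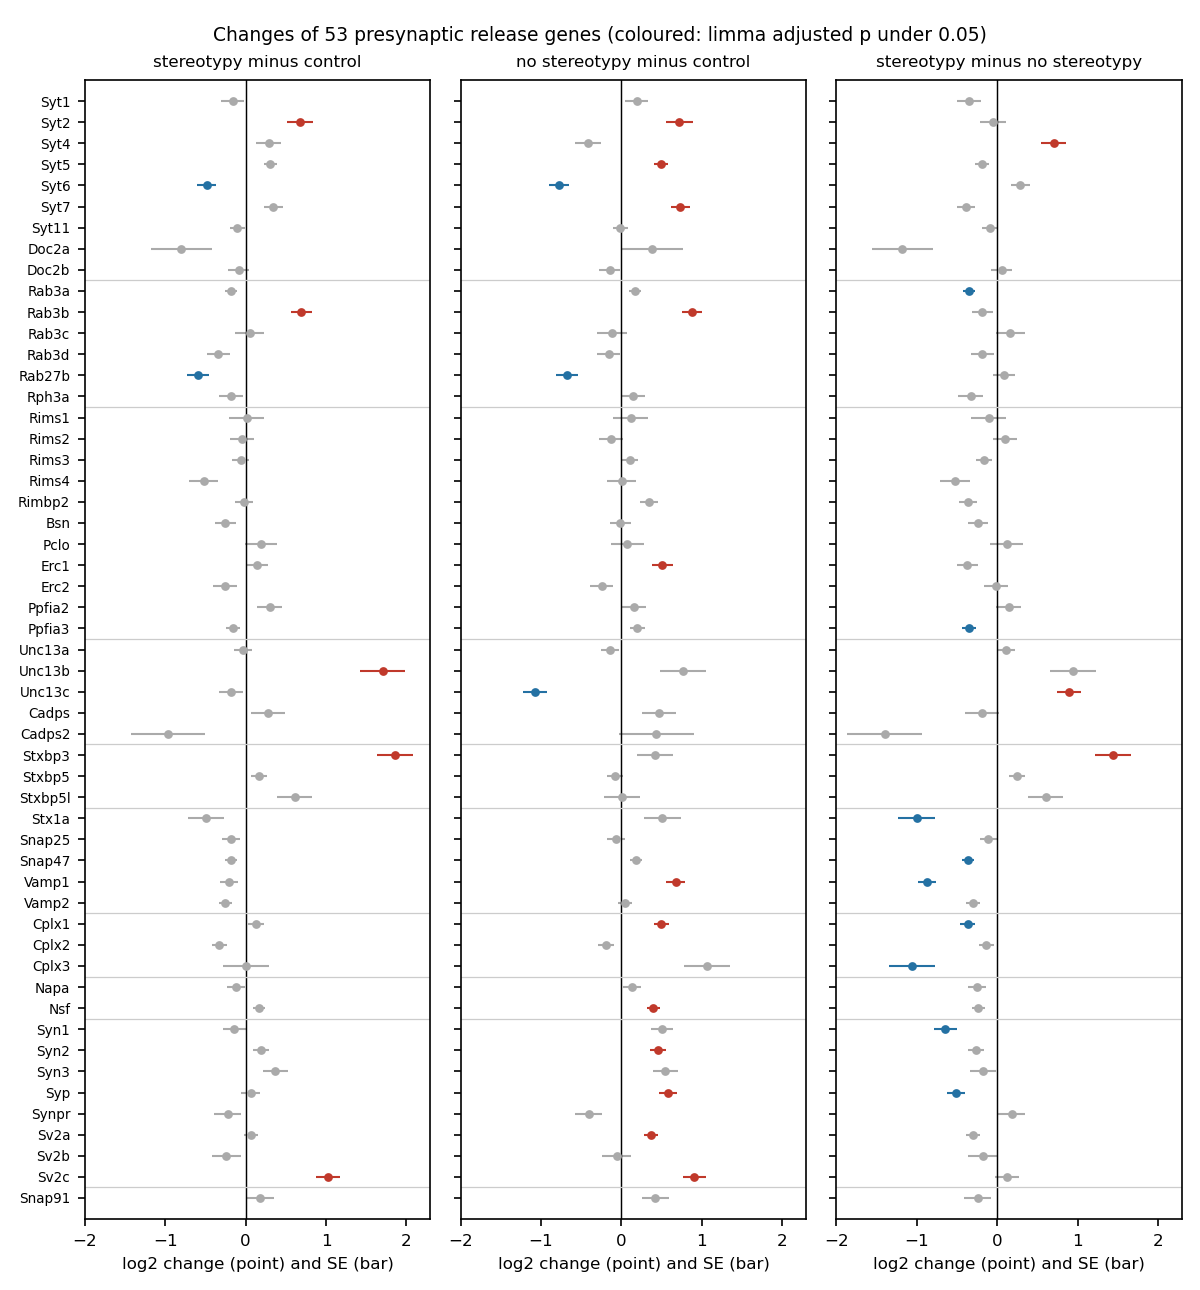
Log2 change (point) and its SE (bar) of each of the 53 genes, ordered by role, in 3 panels for stereotypy against control, no stereotypy against control and stereotypy against no stereotypy. Red points passed upward and blue points downward (5 and 2, 12 and 3, and 3 and 9), and gray points did not pass.

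Markers of other neurons had negative medians in this comparison. Markers of D1 neurons, astrocytes, oligodendrocyte precursors, microglia and vessels had positive ones, and oligodendrocyte markers were split in direction. A link of these markers to the changes of the 53 genes was not tested. Slc17a7, the vesicular glutamate transporter of cortical neurons and the defining marker of that list, stood at 339, 218 and 658 CPM in the controls, 208, 199 and 117 CPM with stereotypy and 506, 475 and 1139.6 CPM without. Its difference was -1.93 (SE 0.41, limma adjusted p = 0.0246). The median difference was -1.01 over 11 cortical markers (2 of 11 lower, Slc17a7 and Emx1), -1.11 over 14 interneuron markers (2 lower) and -1.23 over 5 D2 neuron markers (0 called by limma, 5 with an unadjusted p under 0.05). On the other side the median was 0.49 over 9 D1 markers (2 higher, Drd1 among them), 0.50 over 12 astrocyte markers (3 higher), 0.54 over 9 microglia markers (2 higher) and 1.07 over 10 vascular markers (3 higher). It was 0.51 over 6 oligodendrocyte precursor markers (1 higher). Over 12 oligodendrocyte markers it was 0.07 (1 higher), with 6 positive and 6 negative differences. In the controls and in the no-stereotypy group, replicate 3 held the most Slc17a7, and replicate 3 was also the highest library for 35 and 33 of the 53 genes, 28 of them in both groups, among which were Stx1a, Cplx3, Syn1, Syp and Doc2a. Rab3a, Cplx1 and Ppfia3, also lower with stereotypy, were not among the 28. The same count over all genes was not made. Over all genes tested, the deviations of these libraries from their group means correlated at 0.406. That is another measure than the count, and whether the pattern was particular to the 53 was not tested.

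With a covariate of cortical and interneuron markers, 2 of the 53 genes passed between the TrkB-deleted groups, Stxbp3 (1.11, SE 0.27, limma adjusted p = 0.0456) and Vamp1 (-0.72, SE 0.14, limma adjusted p = 0.0377). Of all 13695 genes, 539 (3.94%) passed in the same fit, so the 53 genes lay near the share of all genes. The other 10 of the 12 genes did not pass. The estimate was smaller than without the covariate for Stx1a (-0.37, limma adjusted p = 0.0831), Syn1 (-0.28, limma adjusted p = 0.104), Syp (-0.31, limma adjusted p = 0.122), Cplx3 (-0.26, limma adjusted p = 0.29) and Ppfia3 (-0.22, limma adjusted p = 0.214). It was near its size for Rab3a (-0.39, limma adjusted p = 0.0589), Cplx1 (-0.40, limma adjusted p = 0.0831), Snap47 (-0.33, limma adjusted p = 0.0773) and Syt4 (0.72, limma adjusted p = 0.0666), and somewhat smaller for Unc13c (0.75 beside 0.90, limma adjusted p = 0.0504). Against the controls the same covariate gave 16 calls without stereotypy (14 of the 15 made without it) and 11 with stereotypy (5 of the 7). Of all genes, 8.16% and 9.87% were called in the same order. In that fit Sv2c rose by 0.80 with stereotypy (limma adjusted p = 0.000797) and by 1.06 without (limma adjusted p = 3.98e-05).

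**Figure D5:**
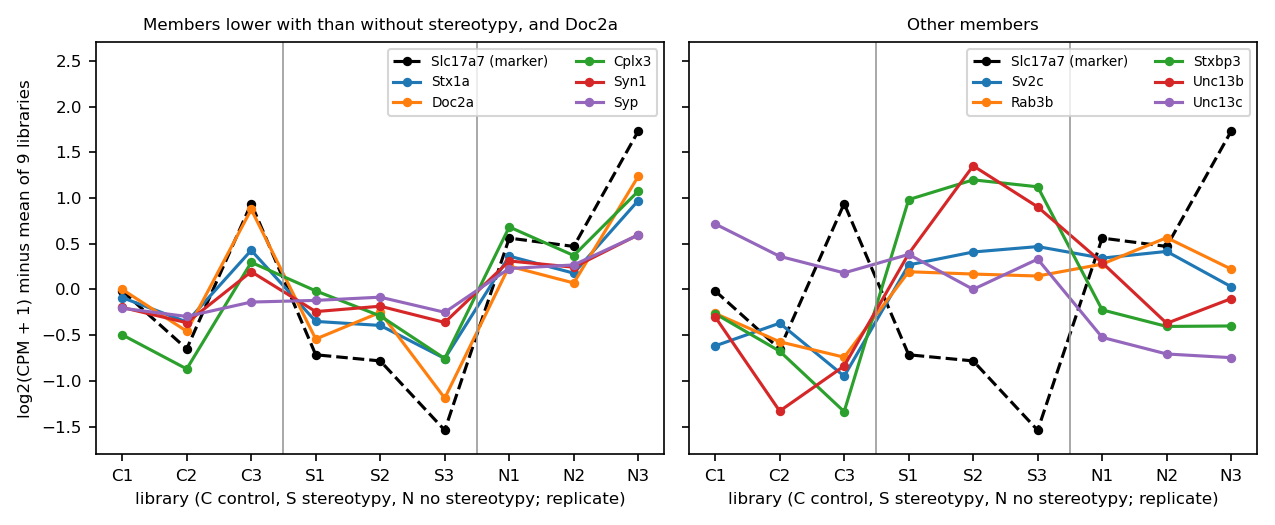
Log2(CPM + 1) of single genes minus their mean over the 9 libraries (C control, S stereotypy, N no stereotypy, with the replicate number), beside the cortical marker Slc17a7 (dashed). In the left panel Stx1a, Doc2a, Cplx3, Syn1 and Syp are highest in N3, as Slc17a7 is, and in the right panel Sv2c, Rab3b, Stxbp3, Unc13b and Unc13c do not have their highest value there. Doc2a did not pass the threshold. The other genes that were lower with than without stereotypy are not shown. Of these, Rab3a, Cplx1 and Ppfia3 are highest in N1, and Snap47 and Vamp1 in N3.

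The make-up of families is described by the share of single genes. The share of Cplx1 in the complexin level per kilobase was 24.0% ± 0.687 in the controls, 30.2% ± 1.61 with stereotypy and 33.4% ± 0.745 without, with no overlap between the 3 groups. Sv2c made up 13.2% ± 3.21, 23.2% ± 1.47 and 18.7% ± 3.31 of the SV2 level, and Rab3b 6.80% ± 0.917, 11.5% ± 0.267 and 11.1% ± 1.61 of the Rab3 level. Unc13b made up 1.80% ± 0.559, 6.11% ± 1.71 and 3.79% ± 1.09 of the Unc13 level, and Unc13c 21.2% ± 4.10, 18.6% ± 3.55 and 11.9% ± 1.60 (SD, n = 3 throughout). The dominant paralogs Cplx2, Sv2a, Rab3a and Unc13a still held the largest share in every library. The Sv2c share without stereotypy overlapped with the controls, as did the Unc13c share with stereotypy. The other shares of Sv2c, Rab3b, Unc13b and Unc13c in the TrkB-deleted groups did not overlap with the controls. Shares were not tested.

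No comparison called the other 29 genes. Of the 11 active zone scaffolds, 9 were among them, including the 4 RIM genes, Bsn and Pclo. Rims4 came nearest among the RIMs, at 93.7 ± 31.1, 62.9 ± 5.95 and 91.0 ± 7.97 CPM (SD, n = 3), with a difference of -0.53 between the TrkB-deleted groups (limma adjusted p = 0.0861). Larger estimates with wide errors came from Cadps2, a CAPS priming factor for dense-core vesicles, at 37.3, 12.1 and 38.8 CPM, 20.1, 13.4 and 7.82 CPM, and 25.3, 28.5 and 62.3 CPM (difference -1.40, SE 0.47, limma adjusted p = 0.0776). The calcium sensor Doc2a, at 10.8, 7.58 and 20.6 CPM, 7.09, 8.90 and 4.17 CPM, and 13.1, 11.4 and 26.8 CPM, differed by -1.18 (SE 0.38, limma adjusted p = 0.0704), and Ino80e on the other strand overlaps 39.4% of its exon length. These 3 genes were singled out after their values were seen. A p above the threshold does not show that such genes stayed equal.

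A further 109 genes of vesicles, SNAREs, the active zone and vesicle endocytosis that are not on the list were followed beside it, and 93 of them were tested. Against the controls, 4 rose and 3 fell with stereotypy and 6 rose and 3 fell without (7.53% and 9.68% of the 93, beside 5.10% and 6.77% of all genes), with medians of 0.01 and 0.08 on the log2 scale. Baiap3, a Munc13-like factor of dense-core vesicles, rose from 12.04, 16.4 and 20.7 CPM to 31.3, 52.4 and 44.9 CPM with stereotypy (1.34, SE 0.25, limma adjusted p = 0.017) and to 64.5, 58.3 and 36.9 CPM without (1.64, SE 0.25, limma adjusted p = 0.00465). Rab3ip, an exchange factor for Rab GTPases, fell from 65.5, 60.6 and 68.7 CPM to 42.8, 39.5 and 45.7 CPM (-0.59, limma adjusted p = 0.00745) and to 44.3, 44.8 and 45.5 CPM (-0.52, limma adjusted p = 0.00885). Picalm, a clathrin adaptor related to AP180, rose by 0.76 and 0.46 (limma adjusted p = 0.00546 and 0.029). With stereotypy Lin7a and Vamp4 also rose, by 0.78 and 0.59 (limma adjusted p = 0.0338 and 0.0423), and the vesicle protein Syngr3 fell by 0.47 (limma adjusted p = 0.0188). Without stereotypy Rab3il1, Amph, Ap2a2 and Dnm1 rose by 1.09, 0.54, 0.49 and 0.38, the last 3 being genes of clathrin-mediated vesicle retrieval (limma adjusted p = 0.00854, 0.0288, 0.015 and 0.0488).

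Between the TrkB-deleted groups 12 of these 93 genes were lower with stereotypy and 3 higher (16.1%, beside 10.2% of all genes, of which 3.60% lower and 6.61% higher), and the median difference was -0.07. Of the 12, 6 were other vesicle membrane proteins or transporters and 5 were endocytosis genes. Amph differed by -0.61 (limma adjusted p = 0.024) and Sncb, beta-synuclein, by -0.67 (limma adjusted p = 0.0238). Syt13 differed by -1.41 (limma adjusted p = 0.0396) at 49.9, 42.5 and 108 CPM, 36.2, 40.2 and 25.3 CPM, and 71.5, 65.6 and 157 CPM, highest in replicate 3 of the controls and of the no-stereotypy group, as Slc17a7 was. Mctp1, a membrane protein with calcium-binding C2 domains, was higher by 0.74 (limma adjusted p = 0.0263). The vesicular GABA transporter Slc32a1, which fills the vesicles of medium spiny neurons, stood at 586, 712 and 579 CPM in the controls, 672, 697 and 662 CPM with stereotypy and 790.5, 773 and 618 CPM without. The groups overlapped, and no comparison passed (limma adjusted p = 0.559, 0.305 and 0.619 for stereotypy against control, no stereotypy against control and between the TrkB-deleted groups).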

How the data were processed

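Ribosome-bound RNA of 9 libraries (3 groups of 3) was analysed from the levels the authors deposited, 1 table per library in CPM. TopHat and GRCm38 were used, per the submitters' processing notes, while how reads were counted, and on which strand, is not given in the sources used here. Whole reads were recovered from the CPM steps (100% of values, tolerance 0.1 reads) for edgeR and DESeq2. Symbols and positions came from GENCODE M21 (GRCm38), to which 47310 of 47729 identifiers (99.12%) matched. Exon length is the union over the transcripts of a gene.

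The members, related genes, markers and tests were chosen with earlier results of these data known. A gene was tested if it reached 1 CPM in 3 or more libraries (13695 genes). Tests used limma 3.58.1 in R 4.3.3 on log2(CPM + 1), so changes of low genes are understated. The fit held a mean per group, a variance trend and all 9 libraries (6 residual degrees of freedom), and p-values were adjusted over all 13695 genes by the Benjamini-Hochberg method, with a threshold of 0.05. The script was tested on simulated data. Alternatives were pseudocounts of 0.25 and 4, both other filters (none, or a mean over 5 CPM), rescaling by median of ratios, edgeR 4.0.16, DESeq2 1.42.0, a replicate block, covariates of glial and vascular or of cortical and interneuron markers, and leaving out each library. Named with every library's value were members past the threshold in any comparison and the member with the highest CPM of each role. From the related genes, up to 6 per direction and comparison with the largest change, of which the text gives a part, and Slc32a1 were eligible, and exceptions are marked.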

Additional observations from a re-analysis of the deposited data

Results flagged for a closer look

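For 12 of the 53 genes the change against the controls differed between the TrkB-deleted groups by the test of the difference itself (limma, adjusted p under 0.05 over all genes). On the log2 scale, as stereotypy minus no stereotypy, the differences were 1.44 for Stxbp3, 0.90 for Unc13c and 0.70 for Syt4 on the higher side. On the lower side they were -1.06 for Cplx3, -1.0 for Stx1a, -0.88 for Vamp1, -0.65 for Syn1, -0.52 for Syp, -0.37 for Cplx1, -0.36 for Snap47, -0.35 for Rab3a and -0.35 for Ppfia3. In all 12 genes the 3 libraries of one group did not overlap with the 3 of the other. The same values chose these genes, so the separation is not a further result, and it was not counted over all genes. None of the 12 calls held without stereotypy replicate 2 or 3, or without no-stereotypy replicate 1 or 2. Without Nrgn, which carries most of the sum, cortical markers summed to 254 to 396 CPM with stereotypy and 699.7 to 1572 CPM without.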

How the results depend on the processing

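Of the 45 calls of single genes in the 4 comparisons, 0 reversed under any alternative, 16 held whichever library was left out and 10 held under every alternative (0 of 7 for stereotypy against control, 7 of 15 for no stereotypy against control, 0 of 12 between the TrkB-deleted groups and 3 of 11 for the mean). In that order of comparisons the counts of 7, 15, 12 and 11 became 4, 9, 4 and 7 with no filter, where more genes were tested. Of all genes, 1.26%, 1.84%, 2.18% and 1.49% were then called, in place of 5.10%, 6.77%, 10.2% and 5.72%. DESeq2 gave 12 for stereotypy against control and 21 between the TrkB-deleted groups, beside 11.1% and 17.1% of all genes. The glial and vascular covariate gave 0, 5 and 3 for stereotypy against control, between the TrkB-deleted groups and for the mean, and the cortical and interneuron covariate gave 11, 2 and 17. Of all genes, the first covariate called 0.0146%, 1.38% and 0.424% and the second 9.87%, 3.94% and 9.86%. The cause of the covariate shifts was not tested.

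Leaving out each library in turn gave 2 to 8 for stereotypy against control (4, 2, 3 and 4 without stereotypy replicates 1, 2 and 3 and no-stereotypy replicate 1), 8 to 17 for no stereotypy against control (8 and 9 without no-stereotypy replicates 1 and 2), 0 to 18 between the TrkB-deleted groups and 7 to 13 for the mean (7 without control replicate 1). In the same order, 0.913% to 5.90%, 2.32% to 6.84%, 0% to 14.6% and 3.05% to 5.37% of all genes were called.

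With a replicate block the counts were 7, 17, 15 and 13, beside 6.70%, 8.02%, 13.1% and 6.43% of all genes. Deviations of libraries with the same number correlated at -0.0798 to 0.406, over 0.1 in 4 of 9 pairs, so the numbers were not taken to pair the libraries. With 3 libraries a group, small changes can be missed, and reads of overlapping genes on opposite strands could not be separated.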
